A study of Homo sapiens with 12 samples.

Results

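The enzymes that make serine and pass its carbon into the folate cycle were followed by RNA sequencing in 3 lung cancer cell lines after silencing of NRF2, the transcription factor encoded by NFE2L2. The members were a list of 10 named genes, taken by symbol from the 57815 genes of each file: PHGDH, PSAT1, PSPH, SHMT1, SHMT2, MTHFD1, MTHFD2, MTHFD1L, ALDH1L1 and ALDH1L2. Each symbol matched 1 identifier. The lines were A549 and H2023, labelled as lung adenocarcinoma, and H460, labelled as large cell carcinoma of the lung. All 3 are labelled as KEAP1 mutation positive, a lesion that the control cells carry too. KEAP1 is the adaptor protein that marks NRF2 for degradation. RNA was taken 48 h after transfection with control or NRF2 siRNA. Each of the 6 groups held 2 libraries. The control pairs, libraries 0 and 1, were biological duplicates. The pair of NRF2 siRNA libraries of a line was made with different siRNAs, number 28 and number 30, so the spread within such a group includes the difference between siRNAs. The A549 libraries were depleted of ribosomal RNA and those of H2023 and H460 were polyA-selected, and A549 was grown in high-glucose medium and the others in low-glucose medium. Levels in A549 are therefore not compared with those in the other lines, since line, medium and library type cannot be told apart.

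Serine is built from the glycolytic intermediate 3-phosphoglycerate by the consecutive action of PHGDH, PSAT1 and PSPH. Serine hydroxymethyltransferases then split serine into glycine and a carbon unit carried by tetrahydrofolate, and the MTHFD and ALDH1L enzymes oxidise or reduce that unit for the making of purines, thymidylate and NADPH. The pathway runs in parallel in the cytosol (SHMT1, MTHFD1, ALDH1L1) and in mitochondria (SHMT2, MTHFD2, MTHFD1L, ALDH1L2). In lung cancer cells with active NRF2, transcription of several of these genes is known to pass through the transcription factor ATF4.

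Proximal promoters of the members are shown because ATF4 and NRF2 bind short DNA words. The RefSeq promoter windows on assembly GRCh38.p14, with 250 bases before and 50 after each start, held entries for 7 of the 10 members in 11 windows. The searches covered both strands. The first word was TGATGNAA, the core of the composite element read by ATF4 and a C/EBP partner. The second was TGACNNNGC, the core of the antioxidant response element read by NRF2, whose first bases it shares with the AP-1 element. TGATGNAA was present in 3.62% of the 35116 windows of all genes and TGACNNNGC in 13.3%. Among the members, the NRF2 word occurred in the MTHFD2 window, 6 bases after the start. The ATF4 word occurred in MTHFD1L at a single genomic site shared by overlapping windows. That site lies 129 and 90 bases before 2 of its starts and 24 bases after another. No match was present in the 300-base windows of PHGDH and PSAT1, which says only that these letters are not in these windows. The stretches below run 5′ to 3′ on the plus strand, with a matched word in capitals.
MTHFD2, chr2:74198365-74198644, 250 bases before the start and the first 30 after it: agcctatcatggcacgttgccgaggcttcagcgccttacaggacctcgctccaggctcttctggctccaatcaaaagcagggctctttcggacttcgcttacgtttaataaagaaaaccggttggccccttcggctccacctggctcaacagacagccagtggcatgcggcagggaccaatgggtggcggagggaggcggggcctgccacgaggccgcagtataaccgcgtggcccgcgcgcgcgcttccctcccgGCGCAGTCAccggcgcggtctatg
MTHFD1L, chr6:150866346-150866375, the 30 bases around the match: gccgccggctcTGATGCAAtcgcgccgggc
PHGDH, chr1:119711684-119711933, the 250 bases before the start: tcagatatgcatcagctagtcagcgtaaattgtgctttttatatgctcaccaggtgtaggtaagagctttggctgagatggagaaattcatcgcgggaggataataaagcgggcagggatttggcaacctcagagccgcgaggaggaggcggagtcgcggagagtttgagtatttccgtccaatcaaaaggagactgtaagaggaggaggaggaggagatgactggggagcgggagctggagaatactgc
PSAT1, chr9:78296875-78297124, the 250 bases before the start: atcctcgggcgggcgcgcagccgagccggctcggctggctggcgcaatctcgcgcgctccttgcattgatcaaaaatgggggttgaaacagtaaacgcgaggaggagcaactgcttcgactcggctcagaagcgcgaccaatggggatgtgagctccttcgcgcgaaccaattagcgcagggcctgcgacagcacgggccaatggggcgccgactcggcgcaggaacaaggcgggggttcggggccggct

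Silencing was present in every NRF2 siRNA library. NFE2L2 was at 38.2 and 30.9 FPKM (fragments per kilobase of transcript, scaled to library size) in the A549 control libraries and at 5.31 and 7.84 FPKM with siRNA 28 and siRNA 30. It was at 120.0 and 118 FPKM in the H2023 controls against 7.74 and 6.80 FPKM, and at 144 and 99.5 FPKM in the H460 controls against 6.54 and 12.2 FPKM. NFE2L2 and 4 of its classical targets, NQO1, GCLM, TXNRD1 and SRXN1, were lower in all 3 lines at a limma adjusted p under 0.05. Relative depth within a line, read from the steps between low values, was 92.6% to 107% of the first control library, and 12732 to 13909 genes per library reached 1 FPKM. The epithelial keratins KRT8 and KRT18 were at 298 FPKM or above in every library, whereas EPCAM and CDH1 were at 1.19 FPKM or below in H460. Epithelial genes also moved with the groups. CDH1, the epithelial cadherin, rose in H2023 from 12.6 and 8.05 FPKM to 65.0 and 58.3 FPKM (log2 difference 2.497, limma adjusted p = 0.0280), the 1 call among 5 epithelial markers within any line, and KRT8 and KRT18 rose on average over the lines (0.78, adjusted p = 0.00638, and 0.60, adjusted p = 0.00556). The lung lineage markers NKX2-1, NAPSA, SFTPB and SFTPC did not exceed 1.25 FPKM in any library, including the lines labelled as adenocarcinoma. The leukocyte genes PTPRC and CD3E and the fibroblast genes COL1A2 and DCN stayed under 1 FPKM in all 12 libraries, but other genes of these lists did not. CD14, a monocyte receptor, was at 1.77 and 5.49 FPKM in the H460 controls against 17.6 and 19.4 FPKM with the NRF2 siRNAs (log2 difference 2.20, limma adjusted p = 0.0288), and reached 2.68 FPKM in A549 and 0.788 FPKM in H2023. The collagen COL1A1 also rose in H460, from 1.81 and 2.06 FPKM to 5.94 and 5.81 FPKM (1.23, adjusted p = 0.0329), and reached 7.61 FPKM in H2023, while COL3A1, LUM and LYZ reached at most 8.56, 2.73 and 1.32 FPKM in any library. The part of these epithelial, leukocyte and fibroblast genes in the results was not tested.

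One library stood apart in the genes under study. In H460, control library 0 held 1.83 to 2.33 times the FPKM of control library 1 for PHGDH, PSAT1, PSPH, SHMT2, MTHFD2, MTHFD1L and ALDH1L2, but only 1.10 times for SHMT1 and 1.05 times for MTHFD1. Thus 7 of 9 members lay at least 0.5 above on the log2 scale, against 10% of the genes tested in H460. The same measure gave 0 members in A549 (5.18% of genes) and 1 member in H2023 (6.58% of genes). ATF4 was at 497 FPKM in H460 control library 0 and at 247 FPKM in control library 1. DDIT3, a stress-induced factor downstream of ATF4, was at 128 and 10.4 FPKM, and CHAC1, a glutathione-degrading enzyme of the same response, at 17.8 and 0.370 FPKM; both were picked after their values were seen. The effects of NRF2 siRNA on the members in H460 are therefore given with and without control library 0. Transcripts of the mitochondrial genome also moved with the groups in H460, taking 8.56% and 13.1% of FPKM in the controls and 20.8% and 26.0% with siRNA 28 and siRNA 30, and the 10 highest genes took 10.4% and 13.5% against 19.3% and 24.0%. With FPKM rescaled without these transcripts the median change of the members in H460 was -0.95 in place of -1.16. The part of either in the results was not tested beyond these values.

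**Figure D1:**
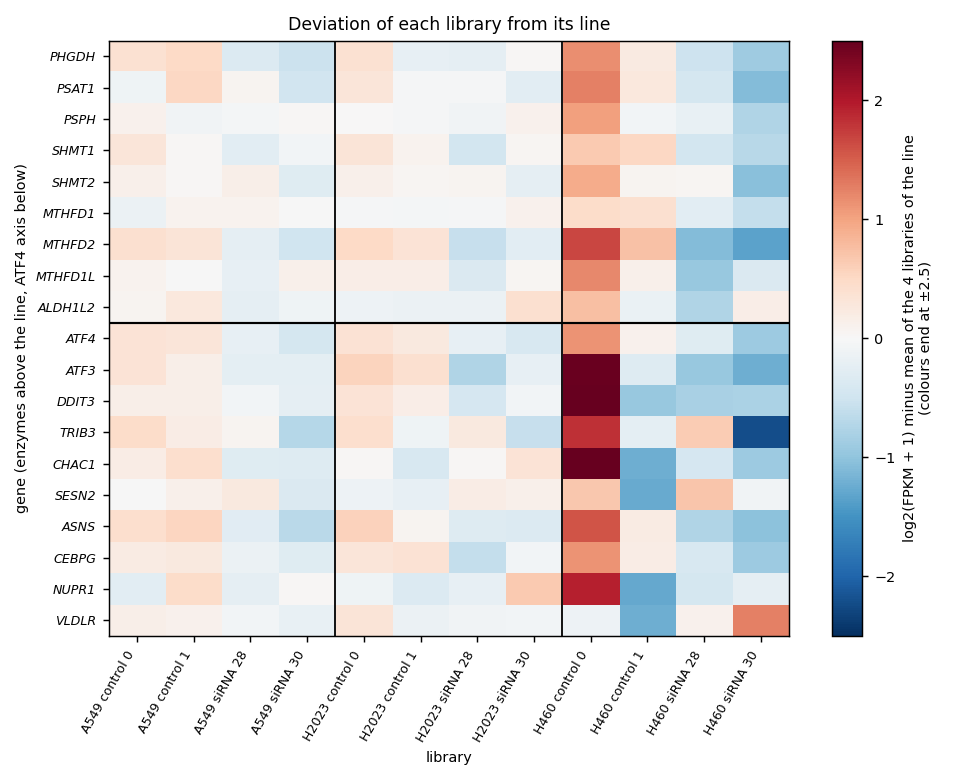
Each square shows 1 gene in 1 library as log2(FPKM + 1) minus the mean of the 4 libraries of its line, with red above and blue below that mean and colours ending at ±2.5. The tested members stand above the horizontal line and 10 genes of the ATF4 response below it, and H460 control library 0 is red for all 9 members and for all of the ATF4 response genes except VLDLR.

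In control cells of A549 and H2023, SHMT2, MTHFD2 and PSAT1 led the list by FPKM, a scale per transcript length. In A549 the order was MTHFD2 at 164 ± 6.98 FPKM (mean ± SD, n = 2), SHMT2 at 107 ± 4.75 FPKM and PSAT1 at 79.4 ± 23.6 FPKM. MTHFD1 and PSPH followed with overlapping libraries, then PHGDH and SHMT1, also overlapping, and then MTHFD1L at 15.2 ± 0.846 FPKM. H2023 had SHMT2 first at 174 ± 7.13 FPKM, ahead of MTHFD2 at 96.0 ± 7.31 FPKM and PSAT1 at 70.1 ± 11.7 FPKM, and there PSPH and PHGDH overlapped. In H460, SHMT2 at 344 ± 143 FPKM and MTHFD2 at 193 ± 86.2 FPKM overlapped. Behind them PSAT1 overlapped MTHFD1 above it and PHGDH below it, while MTHFD1 and PHGDH did not overlap each other. The formyltetrahydrofolate dehydrogenases had the lowest means in every line, with ALDH1L2 at 2.66 to 5.99 FPKM on average and ALDH1L1 under 1 FPKM in all 12 libraries, although in H460 ALDH1L2 overlapped PSPH, and PSPH overlapped MTHFD1L.

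H460 and H2023 were both polyA-selected, and their control libraries were compared with limma on log2(FPKM + 1). In H460, 4 of 9 members were higher and 1 was lower, where 24.6% of 14039 genes were called higher and 24.2% lower. MTHFD1 was 0.98 higher on the log2 scale in H460 (SE 0.123, adjusted p = 0.00187), SHMT1 0.70 higher (adjusted p = 0.0124), SHMT2 0.92 higher (adjusted p = 0.0398) and MTHFD2 0.93 higher (adjusted p = 0.0468). PSPH was lower by 1.68 (log2 difference -1.68, SE 0.349, adjusted p = 0.0105), at 13.3 and 5.72 FPKM against 31.0 and 29.9 FPKM. PHGDH differed by 0.93 (adjusted p = 0.0659) and PSAT1 by 0.12 (adjusted p = 0.777). Without H460 control library 0, 3 members were called where 36.8% of genes were. They were MTHFD1 at 0.95, PSPH at -2.23 and ALDH1L2 at -0.88 (adjusted p = 0.0421), while PSAT1 turned to -0.37, and MTHFD2 differed by 0.46 (adjusted p = 0.0744), SHMT2 by 0.48 (adjusted p = 0.0622), SHMT1 by 0.63 (adjusted p = 0.0556) and PHGDH by 0.47. There were 7 members called without H460 control library 1, where 41.8% of genes were, and leaving out either one of the H2023 controls left 1 call, MTHFD1, where 14.1% and 14.5% of genes were called.

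Across the lines, MTHFD2 and SHMT1 were the 2 members for which both NRF2 siRNA libraries lay below both control libraries in all 3 lines. PHGDH did so in A549 and H460 and overlapped in H2023. Nearly the whole list was lower in H460, where only ALDH1L2 overlapped. Per line, 4 of 9 members lay wholly lower in A549, 3 of 9 in H2023 and 8 of 9 in H460, where 20.5%, 22.0% and 31.6% of all tested genes did. The share of genes wholly lower in all 3 lines at once was not counted, so MTHFD2 and SHMT1 have no such comparison. In the other direction there were 0 members in A549, 1 in H2023 (MTHFD1) and 0 in H460, where 25.2%, 27.0% and 31.1% of genes lay wholly higher. These are values of cultured populations, in which fewer cells of a kind and less RNA per cell cannot be told apart.

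The tests within a line had 2 libraries per group and were run with limma over all genes at FPKM of at least 1 in at least 2 of the 4 libraries. No member passed an adjusted p of 0.05 in A549, where 0.554% of 13898 genes were called lower and 0.122% higher, nor in H2023, where 0.583% of 14059 genes were called lower and 0.327% higher. At an unadjusted p under 0.05, 2 members were lower in A549 and 1 in H2023, against 4.99% and 6.68% of all genes, and 0 were higher, against 8.27% and 10.2%. MTHFD2 was called in H2023 when the siRNA 30 library was left out (adjusted p = 0.0206), a fit in which 7.39% of genes were called. In a fit of 3 libraries the spread comes from the remaining pair alone, and the lone library is assumed to vary like it; here that pair was the controls. The fits without either H2023 control, whose spread comes from the siRNA pair, did not call it (adjusted p = 0.718 and 0.580). In H460, 3 of 9 members were called lower (PHGDH, SHMT1 and MTHFD2), where 6.86% of 13446 genes were called lower and 7.12% higher. The unadjusted count in H460 was 6 lower and 0 higher, against 16.7% and 17.0% of genes. On the log2(FPKM + 1) scale the 9 members had a median change of -0.33 for A549, -0.18 for H2023 and -1.16 for H460, while the medians of all tested genes were 0.02, 0.02 and -0.01. Without H460 control library 0 the median of the members there was -0.82 and 0 members were called, and without control library 1 it was -1.49 with 0 called. Only 1 of 13446 genes was called in each of these fits of 3 libraries. Without the siRNA 28 library 5 members were called, PSAT1, SHMT1, SHMT2, MTHFD1 and MTHFD2, where 20.9% of genes were, and without the siRNA 30 library SHMT1 and MTHFD2, where 14.6% were.

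**Figure D2:**
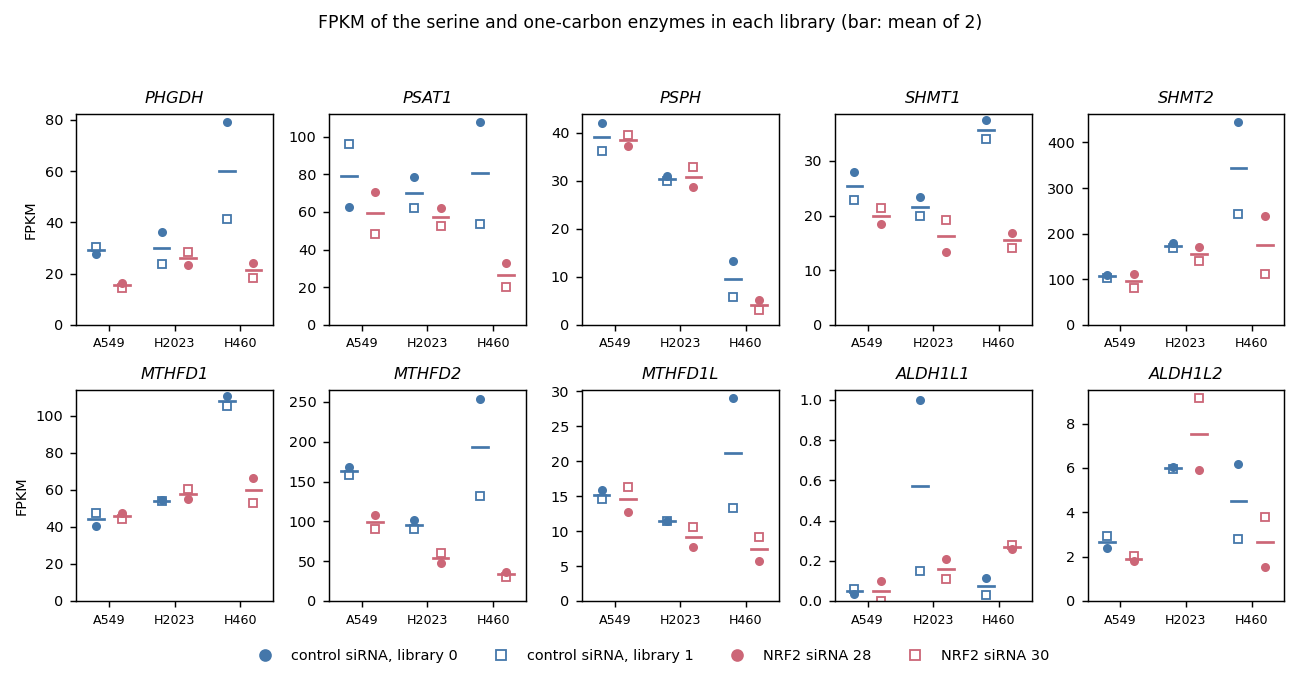
FPKM of each of the 10 members in every library, with 1 panel per gene, control siRNA in blue, NRF2 siRNA in red, and a bar at the mean of 2 libraries. MTHFD2 and SHMT1 show both red points below both blue points in all 3 lines, and H460 control library 0 (filled blue) is far above control library 1 for most genes.

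PHGDH (ENSG00000092621.7, GRCh37 chromosome 1, 120191034 to 120286841, plus strand), the dehydrogenase that opens serine synthesis, fell in H460. It was at 27.8 and 30.4 FPKM in the A549 controls and at 16.4 and 14.3 FPKM with siRNA 28 and siRNA 30. In H2023 the controls were at 36.2 and 23.9 FPKM and the NRF2 siRNA libraries at 23.5 and 28.3 FPKM. In H460 the controls were at 79.1 and 41.1 FPKM against 24.2 and 18.4 FPKM. The groups were separate in A549 and H460, and in H2023 the siRNA 30 library lay between the controls. The log2 difference was -1.39 in H460 (SE 0.348, limma adjusted p = 0.0475), and -0.93 without control library 0 (adjusted p = 0.296). It was -1.86 without control library 1 (adjusted p = 0.157), where only 1 gene in all was called, -1.58 without the siRNA 28 library (adjusted p = 0.0515) and -1.21 without the siRNA 30 library (adjusted p = 0.105), so no fit of 3 libraries called it. The call was also lost with a pseudocount of 0.1 (adjusted p = 0.0507), with no trend of the prior variance (0.0560), with FPKM rescaled without mitochondrially encoded transcripts (0.0555) and with no filter on low values (0.248). In A549 it was -0.88 (SE 0.145, adjusted p = 0.0975) and in H2023 -0.18 (95% interval -0.81 to 0.44, adjusted p = 0.763).

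PSAT1 (ENSG00000135069.9, chromosome 9, 80912041 to 80945009, plus strand), the aminotransferase of the next step, missed the threshold within each line, narrowly in H460. Its controls in A549 differed, at 62.7 and 96.1 FPKM, and enclosed the siRNA 28 library at 70.5 FPKM, with siRNA 30 at 48.1 FPKM. H2023 had 78.4 and 61.9 FPKM in the controls and 62.3 and 52.6 FPKM with the NRF2 siRNAs. In H460 the controls were at 108 and 53.5 FPKM and the NRF2 siRNA libraries at 32.6 and 20.3 FPKM. Only in H460 were the groups apart, with a log2 difference of -1.52 (SE 0.391, limma adjusted p = 0.0504) and of -1.03 without control library 0 (adjusted p = 0.301). It passed in H460 with size factors (adjusted p = 0.0461), in 1 fit of all 12 libraries (adjusted p = 0.00888) and with a replicate block. The A549 difference was -0.41 (adjusted p = 0.583) and the H2023 difference -0.28 (adjusted p = 0.520).

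PSPH (ENSG00000146733.9, chromosome 7, 56078744 to 56119297, minus strand), the phosphatase that releases serine, has a near-identical pseudogene copy, so its FPKM depends on how the authors' software shared reads. It lay at 42.0 and 36.2 FPKM in A549 controls against 37.2 and 39.6 FPKM, and at 31.0 and 29.9 FPKM in H2023 controls against 28.8 and 32.9 FPKM. In both lines the groups overlapped, with log2 differences of -0.02 (95% interval -0.38 to 0.33) and 0.02 (95% interval -0.40 to 0.43), the second of which turned negative with size factors. In H460 it was at 13.3 and 5.72 FPKM in the controls against 5.25 and 3.19 FPKM, a log2 difference of -0.94 (SE 0.428, limma adjusted p = 0.180) that was -0.39 without control library 0. The H460 difference of PSPH passed in 1 fit of all 12 libraries.

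Of the serine hydroxymethyltransferases, the cytosolic SHMT1 (ENSG00000176974.13, chromosome 17, 18231174 to 18266877, minus strand) fell in H460. It was at 37.4 and 34.0 FPKM in the H460 controls, which were close for this gene, and at 16.8 and 14.1 FPKM with the NRF2 siRNAs. In A549 it went from 27.97 and 22.8 FPKM to 18.5 and 21.4 FPKM, and in H2023 from 23.4 and 19.8 FPKM to 13.3 and 19.3 FPKM. All 3 lines had separate groups, although in H2023 the siRNA 30 library was just under the lower control. The log2 difference was -1.16 in H460 (SE 0.228, limma adjusted p = 0.0297) and -1.09 without control library 0 (adjusted p = 0.254). The A549 and H2023 differences were -0.33 (adjusted p = 0.471) and -0.41 (adjusted p = 0.450).

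The mitochondrial SHMT2 (ENSG00000182199.6, chromosome 12, 57623356 to 57628718, plus strand) passed the threshold in no line in the main fits, although it passed in H460 with a replicate block. In A549 it was at 110.1 and 103 FPKM in the controls and at 112 and 81.5 FPKM with siRNA 28 and siRNA 30. In H2023 the values were 179 and 169 FPKM against 171 and 139.9 FPKM. In H460 the controls were at 445 and 243 FPKM, with siRNA 28 at 239.6 FPKM and siRNA 30 at 111 FPKM. The siRNA 28 library was within or next to the control range in each line, and the siRNA 30 library was below both controls. The log2 difference in H460 was -1.01 (SE 0.446, limma adjusted p = 0.170) and -0.57 without control library 0, and it was -0.16 in both A549 (adjusted p = 0.774) and H2023 (adjusted p = 0.675).

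MTHFD2 (ENSG00000065911.7, chromosome 2, 74413299 to 74444692, plus strand), the mitochondrial methylene-tetrahydrofolate dehydrogenase and cyclohydrolase, had the lowest p of the 9 members in H460 and H2023. In H460 it went from 254 and 132 FPKM in the controls to 36.7 and 30.6 FPKM with siRNA 28 and siRNA 30. In A549 it went from 169 and 159 FPKM to 109 and 90.4 FPKM. In H2023 it went from 101 and 90.9 FPKM to 47.7 and 59.9 FPKM. Each NRF2 siRNA library lay below each control of its line, and the controls of A549 and H2023 were close to each other. MTHFD2 fell in H460 to 0.187 times the control (log2 difference -2.42, 95% interval -3.23 to -1.60, limma adjusted p = 0.0178). The difference was -1.95 without control library 0 (adjusted p = 0.167) and -2.88 without control library 1 (adjusted p = 0.105). The A549 difference was -0.72 (SE 0.150, adjusted p = 0.159) and the H2023 difference -0.83 (SE 0.181, adjusted p = 0.127), with 95% intervals of -1.09 to -0.34 and -1.28 to -0.38.

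MTHFD1 (ENSG00000100714.11, chromosome 14, 64854749 to 64930175, plus strand), the trifunctional cytosolic enzyme, was close to control in A549 and H2023. It stood at 40.5 and 47.6 FPKM against 47.5 and 44.4 FPKM in A549, and at 54.6 and 53.7 FPKM against 55.0 and 60.2 FPKM in H2023. In H460 it stood at 110.4 and 105 FPKM in the controls and at 66.4 and 53.0 FPKM with the NRF2 siRNAs. The groups overlapped in A549, lay slightly apart upwards in H2023 and lay apart downwards in H460. The log2 differences were 0.06 (95% interval -0.30 to 0.42), 0.09 (95% interval -0.30 to 0.47) and -0.85 (SE 0.221, limma adjusted p = 0.0516), the last being -0.82 without control library 0. In 1 fit of all 12 libraries the H460 difference of MTHFD1 passed (adjusted p = 0.00287), and it also passed with a replicate block.

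MTHFD1L (ENSG00000120254.11, chromosome 6, 151186815 to 151423023, plus strand), the mitochondrial formate-producing synthetase, was at 15.8 and 14.6 FPKM in A549 controls against 12.8 and 16.3 FPKM. In H2023 both controls were at 11.5 FPKM, with 7.66 FPKM for siRNA 28 and 10.5 FPKM for siRNA 30. In H460 the controls were at 29.0 and 13.3 FPKM and the NRF2 siRNA libraries at 5.79 and 9.17 FPKM. The groups overlapped only in A549, and here siRNA 28 gave the lower value in every line. The H460 difference was -1.32 (SE 0.414, limma adjusted p = 0.0796) and -0.78 without control library 0, the H2023 difference -0.32 (adjusted p = 0.525) and the A549 difference -0.07 (adjusted p = 0.900). With a replicate block and in 1 fit of all 12 libraries the H460 difference of MTHFD1L passed.

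ALDH1L2 (ENSG00000136010.9, chromosome 12, 105413562 to 105501421, minus strand), the mitochondrial formyltetrahydrofolate dehydrogenase that yields NADPH, was at 2.40 and 2.91 FPKM in A549 controls against 1.79 and 2.01 FPKM. H2023 had 6.05 and 5.94 FPKM against 5.92 and 9.14 FPKM, and H460 had 6.19 and 2.81 FPKM against 1.52 and 3.77 FPKM. The groups were apart in A549 only, and the log2 differences of -0.33, 0.26 and -0.59 had limma adjusted p of 0.482, 0.664 and 0.397. Without control library 0 the H460 difference was -0.13. Its cytosolic counterpart ALDH1L1 (ENSG00000144908.9, chromosome 3, 125822405 to 125916837, minus strand) lay between 0.00120 and 0.9995 FPKM over the 12 libraries and was not tested.

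**Figure D3:**
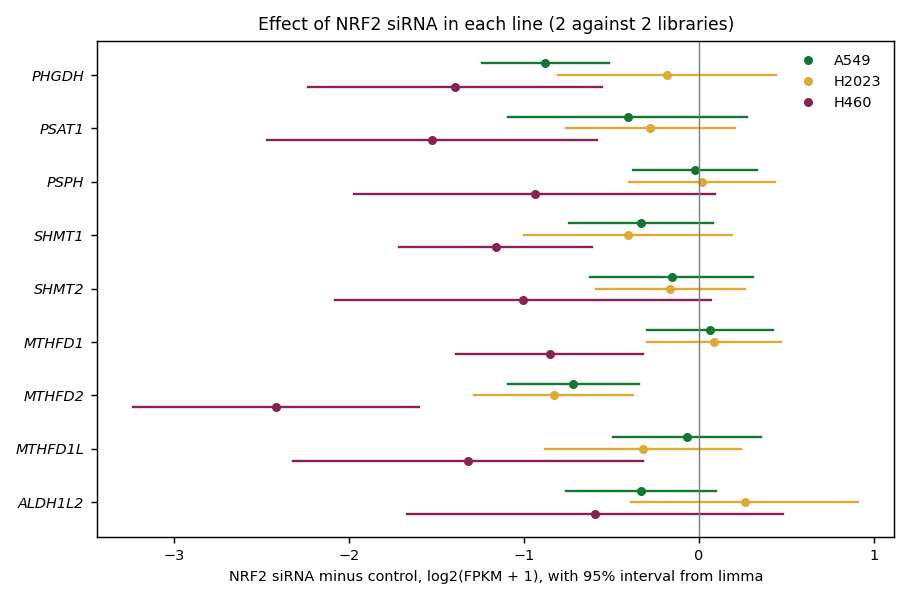
Log2 difference of NRF2 siRNA minus control on the log2(FPKM + 1) scale for the 9 tested members, with 95% limma intervals from 2 against 2 libraries in each line. The intervals of MTHFD2 lie below 0 in all 3 lines, those of PHGDH in A549 and H460, and the H460 intervals are the widest of the 3 lines for most members.

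Averaged over the 3 lines in 1 limma fit of all 12 libraries, 5 of 9 members fell, where 14.5% of 11571 genes were called lower and 15.2% higher. MTHFD2 had the largest average, -1.32 (SE 0.154, adjusted p = 0.000333), followed by PHGDH at -0.82 (SE 0.171, adjusted p = 0.00616), PSAT1 at -0.74 (adjusted p = 0.0220), SHMT1 at -0.63 (SE 0.119, adjusted p = 0.00372) and MTHFD1L at -0.57 (adjusted p = 0.0447). SHMT2 averaged -0.44 (adjusted p = 0.130), PSPH -0.32 (adjusted p = 0.212), MTHFD1 -0.23 (adjusted p = 0.0784) and ALDH1L2 -0.22 (adjusted p = 0.439). With a replicate block MTHFD1L lost its call on average and SHMT2 gained one. Without H460 control library 0, 3 members were called, where 23.5% of genes were, and MTHFD2 averaged -1.16 (adjusted p = 0.000398). Over A549 and H2023 alone, an average added after seeing the data, 1 member fell, where 3.46% of genes were called lower and 4.38% higher. That member was MTHFD2, at -0.77 (SE 0.116, adjusted p = 0.00783), and PHGDH averaged -0.53 there (adjusted p = 0.0669). The count also went to 3 when A549 control library 1, the A549 siRNA 30 library or H2023 control library 0 was left out, with PSAT1 and MTHFD1L losing the call, in fits that called 20.2% to 23.0% of genes.

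Whether the lines responded unequally was tested by the difference of the effects in the same fit. By the F test over 3 lines, 0 of 9 members passed an adjusted p of 0.05, where 2.51% of 11571 genes did, and 5 of 9 had an unadjusted p under 0.05, where 21.2% of genes did. The lowest adjusted p were 0.0556 for MTHFD2 and 0.0627 for MTHFD1. The count was 1 without the H2023 siRNA 28 library or without H460 control library 1, where 5.40% and 0.674% of genes passed, and 2 without the H460 siRNA 28 library, where 6.90% did. For MTHFD2 the adjusted p was 0.146 without H460 control library 0, in a fit where 5 of 11571 genes passed. Between pairs of lines, the effect on MTHFD2 was more negative in H460 than in A549 (difference -1.70, SE 0.378, limma adjusted p = 0.0449), where 3.13% of genes differed. Against H2023 the difference was -1.58 (adjusted p = 0.0508), where 3.32% of genes differed. MTHFD1 differed by -0.92 between H460 and A549 (adjusted p = 0.0550) and by -0.94 between H460 and H2023 (adjusted p = 0.0508). Without H460 control library 0 the MTHFD2 difference was -1.23 against A549 (adjusted p = 0.105) and -1.11 against H2023 (adjusted p = 0.108), and that of MTHFD1 -0.88 and -0.91 (adjusted p = 0.145 for each), where 0.164% and 0.190% of genes differed. Between H2023 and A549 0 members differed, with an unadjusted p of 0.128 or more for each, where 0.00864% of genes did.

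The NRF2 siRNAs themselves were compared over the 6 NRF2 siRNA libraries with the line as a covariate. No member differed at an adjusted p of 0.05 in limma, where 0% of 15716 genes did. At an unadjusted p under 0.05 there were 3 members, against 18.2% of all genes. SHMT2 was 0.62 higher with siRNA 28 than with siRNA 30 on the log2 scale (SE 0.186, adjusted p = 0.202), PSAT1 was 0.48 higher (SE 0.136, adjusted p = 0.189) and MTHFD1L was lower, at -0.44 (SE 0.151, adjusted p = 0.222). Each kept its sign in all 3 lines. MTHFD2 and PHGDH differed by 0.06 (SE 0.161) and 0.10 (SE 0.167), and the sign for MTHFD2 turned with another scaling. Against control, MTHFD2 differed by -0.59 with siRNA 28 and -0.85 with siRNA 30 in A549, and by -0.99 and -0.67 in H2023.

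The mitochondrial and cytosolic enzymes of the same step were then set against each other within each library, which nearly cancels a scaling of the whole library for genes well above the pseudocount of 1. The log2 ratio of MTHFD2 over MTHFD1, taken as the difference of their log2(FPKM + 1), was 2.03 and 1.72 in A549 controls and 1.18 and 1.01 with siRNA 28 and siRNA 30. In H2023 it was 0.88 and 0.75 against -0.20 and -0.01, and in H460 1.19 and 0.32 against -0.84 and -0.77. Thus MTHFD2 stood above MTHFD1 in all 6 control libraries and below it in the 4 NRF2 siRNA libraries of H2023 and H460, with no overlap in any line. The mean change was -1.09, by line -0.78, -0.92 and -1.56. The two-sided exact permutation test within lines gave p = 0.00926, the smallest that its relabellings can give, and 0.0370 after Benjamini-Hochberg adjustment over 4 pairs. Leaving out any 1 library kept the mean change between -1.23 and -0.94, the latter without H460 control library 0. For the step before it, SHMT2 over SHMT1 differed by 0.19 (exact permutation p = 0.435, adjusted 0.580), with the siRNA 28 library above both controls in each line and the siRNA 30 library in none. MTHFD1L over MTHFD1 differed by -0.34 (exact permutation p = 0.157, adjusted 0.315). ALDH1L2 over ALDH1L1 differed by -0.17 (exact permutation p = 0.602), a ratio that rests on values near 0.

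**Figure D4:**
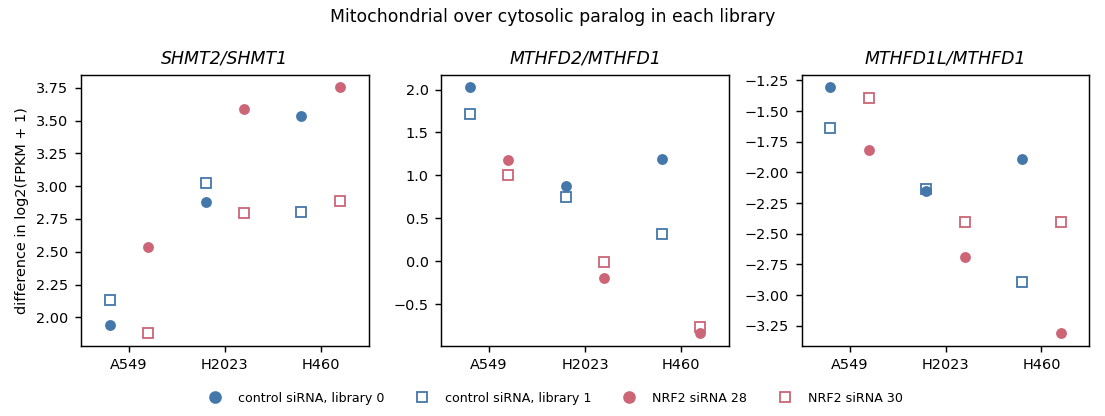
Difference in log2(FPKM + 1) between a mitochondrial enzyme and its cytosolic counterpart in each library, for SHMT2/SHMT1, MTHFD2/MTHFD1 and MTHFD1L/MTHFD1, with control siRNA in blue and NRF2 siRNA in red. The vertical axes do not start at 0, and only for MTHFD2/MTHFD1 do both red points lie below both blue points in every line.

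The other folate enzymes and carriers, a list of 16 genes all of which were tested, had 0 called in A549 and H2023 and 3 lower in H460, with medians of -0.09, -0.08 and -0.76 in the order A549, H2023 and H460. The 3 of 16 in H460 stand beside the 6.86% of all genes called lower there. At an unadjusted p under 0.05, 0, 0 and 10 of them were lower, against 4.99%, 6.68% and 16.7% of all genes, and 1 was higher in H460. The called genes included the folate carrier SLC19A1 at -1.14 (limma adjusted p = 0.0322) and the purine enzyme GART at -1.16 (adjusted p = 0.0409). SLC19A1 was at 19.8 and 19.3 FPKM in the H460 controls, which were close for this gene, and at 8.82 and 7.84 FPKM with the NRF2 siRNAs. TYMS, which uses methylene-tetrahydrofolate to make thymidylate, was at -1.14 (adjusted p = 0.0617). In H460, 6 of 10 cell cycle markers were lower at an adjusted p under 0.05, where 6.86% of all genes were, with a median of -1.31 against -0.21 in A549 and -0.36 in H2023, where 0 were called. The part of the change in cell cycle genes in the change of the folate enzymes was not tested. Without H460 control library 0, 0 genes of either list were called, in a fit that called 1 gene of all tested, with medians of -0.66 for the folate list and -1.42 for the cell cycle markers. SLC19A1 was then at -1.12, GART at -0.91 and TYMS at -1.05. Averaged over the 3 lines with all libraries, 8 of 10 cell cycle markers were called lower and 0 higher, with a median of -0.64. Of the 16 folate genes 4 were called lower and 1 higher, with a median of -0.29, where 14.5% and 15.2% of all genes were.

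Around serine itself, the glycine cleavage genes GLDC, GCSH and DLD had 0 called in any line. AMT, the aminomethyltransferase of the same complex, was at 0.388 and 0.436 FPKM in H460 controls and at 2.22 and 2.82 FPKM with the NRF2 siRNAs, and it reached the 1 FPKM filter only through the NRF2 siRNA libraries, so these values are a description with no test. GLDC, the decarboxylase, was at 8.05 and 4.71 FPKM in H2023 controls against 20.2 and 16.8 FPKM (1.43, adjusted p = 0.110), and at -0.48 in H460 (adjusted p = 0.241). Among the serine and glycine carriers and breakdown enzymes, SFXN3, a mitochondrial serine carrier, rose in H2023 (1.73, adjusted p = 0.0355) and in H460 (1.42, adjusted p = 0.0347). SFXN3 was at 11.8 and 11.03 FPKM in A549 controls against 23.9 and 17.0 FPKM (0.77, adjusted p = 0.221), so it lay above both controls in all 3 lines, opposite to MTHFD2. The amino acid carrier SLC1A5 fell in H460 (-1.37, adjusted p = 0.0314), and SDSL, a serine dehydratase-like enzyme, rose there (1.49, adjusted p = 0.0257). In the methionine cycle and transsulfuration list of 5 genes, AHCY fell in H460 (-0.96, adjusted p = 0.0430). CTH, which makes cysteine from cystathionine, differed by -1.21 in H460 (adjusted p = 0.0628), by -1.67 in H2023 (adjusted p = 0.0886) and by -0.02 in A549 (adjusted p = 0.974). Whether these H460 calls hold without a control library cannot be judged from limma, since the spread then comes from the siRNA pair alone. Without control library 0 the H460 log2 differences were 1.17 for SFXN3, -1.05 for SLC1A5, 1.34 for SDSL, -0.84 for AHCY and -0.76 for CTH. Without control library 1 they were 1.68, -1.69, 1.63, -1.09 and -1.65 in the same order.

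The ATF4 response list of 10 genes had a median below 0 in each line, -0.46 for A549, -0.41 for H2023 and -1.31 for H460, with 0, 0 and 1 gene called lower, where 0.554%, 0.583% and 6.86% of all genes were. At an unadjusted p under 0.05, 5, 4 and 4 were lower, against 4.99%, 6.68% and 16.7% of all genes, and 1 was higher in H460. The 1 call of 10 in H460 is near the share of all genes. The called gene was ASNS, asparagine synthetase, at -1.77 in H460 (limma adjusted p = 0.0485), which was -1.09 without control library 0 (adjusted p = 0.267) and -2.45 without control library 1 (adjusted p = 0.123). ATF4 was at 203 and 196 FPKM in A549 controls against 138 and 117 FPKM, and at 290.0 and 265 FPKM in H2023 controls against 195 and 170.3 FPKM. In H460 it was at 497 and 247 FPKM against 185 and 121 FPKM. The ATF4 groups were apart in all 3 lines, with differences of -0.65 (adjusted p = 0.180), -0.60 (adjusted p = 0.171) and -1.22 (adjusted p = 0.0831), the last being -0.72 without control library 0 (adjusted p = 0.430). The H460 median of this list was -0.20 without control library 0 and -2.36 without control library 1, a wider swing than the -0.82 and -1.49 of the members. Averaged over the 3 lines, 4 of the 10 genes were called lower and 0 higher, where 14.5% and 15.2% of all genes were. ATF4 was at -0.82 (limma adjusted p = 0.00606) and ASNS at -1.12 (adjusted p = 0.00358). CEBPG was at -0.81 (adjusted p = 0.00701) and ATF3 at -1.20 (adjusted p = 0.0363). The same genes were called over A549 and H2023 alone, an average added after seeing the data, where 3.46% of all genes were called lower.

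To describe which genes followed the members from library to library, log2(FPKM + 1) was centred within each line and correlated over the 12 libraries for 11562 genes. These points share libraries and the pull of H460 control library 0, and the r values are a description. PHGDH was most like ASNS (r = 0.970), the helicase gene DHX35 (r = 0.953) and the isoleucyl-tRNA synthetase IARS1 (r = 0.950). PSAT1 was most like HARS2 (r = 0.961), GRPEL2 (r = 0.957) and YARS1 (r = 0.957), of which HARS2 and YARS1 are also tRNA synthetases. SHMT2 was most like GRPEL1 (r = 0.980), LONP1 (r = 0.977) and RPAP3 (r = 0.967), the first a mitochondrial import factor and the next a mitochondrial protease. MTHFD2 was most like IFRD1 (r = 0.991), EXOSC8 (r = 0.988) and CCDC59 (r = 0.981). ATF4 had r = 0.924 with PHGDH, 0.924 with PSAT1, 0.888 with SHMT2 and 0.933 with MTHFD2, which placed it 13, 33, 159 and 188 in the order of likeness. NFE2L2 had r = 0.714, 0.654, 0.502 and 0.850 with the same genes and stood at 1408, 2073, 3070 and 949. Other genes of the ATF4 response were not uniformly closer than NFE2L2. With MTHFD2, DDIT3 had r = 0.748 (1875 in order) and CHAC1 r = 0.610 (2915), both behind NFE2L2, whereas ASNS had r = 0.955 (62). With PHGDH, PSAT1 and SHMT2 both stood ahead of NFE2L2, DDIT3 at 921, 1042 and 1306 and CHAC1 at 1103, 1494 and 1494. Among the members, SHMT1 and MTHFD2 were the closest pair (r = 0.942), and SHMT2 and ALDH1L2 the least alike (r = 0.208).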

How the data were processed

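RNA of 12 libraries was sequenced as strand-specific 80-base paired ends, 2 libraries in each of 6 groups (3 lines, control or NRF2 siRNA). According to the methods, alignment was to hg19 by TopHat and quantification by Cufflinks. The submitters' processing notes name bcl2fastq 2.15.0, cutadapt 1.15, STAR 2.5.3a, Cuffnorm, HTSeq and DESeq2, without giving their roles. The authors deposited FPKM values, which are normalised for length and depth and divide the reads of similar transcripts by an estimate. The authors' deposited DESeq2 tables hold their own comparisons and were not used. Read counts per library were not used here, so depth is known only relative to other libraries of a line.

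FPKM values under 1e-06 (12710 values) were set to 0. Symbols were found for 96.1% of identifiers, and gene positions are those of GENCODE 44 lifted to GRCh37, not resolved into exons. Tests were run on log2(FPKM + 1) with limma 3.58.1 in R 4.3.3 (moderated, prior variance following the mean, Benjamini-Hochberg over all tested genes, threshold 0.05). The pseudocount of 1 understates changes of genes with low values. Genes needed FPKM of at least 1 in at least 2 libraries of the line, or of every line for the 12-library fit. Summaries used Python 3.11.15, numpy 2.4.6 and pandas 2.3.3. The control libraries are biological duplicates, whereas each NRF2 siRNA pair differs by siRNA. The fits were tested on simulated data, and the permutation test on constructed values that were either fully separated or all equal.

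The members and lists were chosen with earlier results of these data known. All members were named, plus up to 6 genes per list that passed in a line and ATF4, TYMS, GLDC, CTH and NFE2L2, and the 3 genes most correlated with PHGDH, PSAT1, SHMT2 and MTHFD2. Some genes that this rule names are not reported here. Same-numbered libraries deviated together with r = -0.03 in A549, 0.31 in H2023 and 0.16 in H460, and the numbers were not taken as pairs. Alternatives were another pseudocount, no filter, other scalings, no variance trend, a replicate block, 1 fit of all libraries, weights per line, and leaving out each library. The average over A549 and H2023 only, the lists in H460 without either control, and the differences between lines without H460 control library 0, were added after seeing the data.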

Additional observations from a re-analysis of the deposited data

Results flagged for a closer look

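A difference between lines in the effect of NRF2 siRNA drew a closer look in 2 members. The log2 difference of MTHFD2 was more negative in H460 than in A549 by -1.70 (limma adjusted p = 0.0449), with both NRF2 siRNA libraries under both controls in each of the 2 lines. That difference between the lines was -1.23 when H460 control library 0 was left out. Against H2023 it was -1.58 with all libraries, which did not pass the threshold (limma adjusted p = 0.0508). Neither did MTHFD2 in the F test over the 3 lines (adjusted p = 0.0556). For MTHFD1 the NRF2 siRNA libraries of H2023, at 55.0 and 60.2 FPKM, lay above its controls at 54.6 and 53.7 FPKM, and those of H460 lay below theirs. Neither log2 difference passed the threshold, at 0.09 in H2023 (95% interval -0.30 to 0.47) and -0.85 in H460 (limma adjusted p = 0.0516). The difference of its effects was -0.94, which did not pass the threshold in the pairwise test (limma adjusted p = 0.0508) or in the F test over the 3 lines (adjusted p = 0.0627).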

How the results depend on the processing

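Under alternatives other than leaving out a library, 373 results on single members kept their direction and side of the threshold, 10 gained a call, 19 lost one and 3 reversed. The reversed values were -0.015 for PSPH in H2023 with size factors, 0.075 for MTHFD1 averaged over A549 and H2023 only, and -0.0034 for MTHFD2 between siRNAs with FPKM rescaled without mitochondrially encoded transcripts. That rescaling moved the median of all genes in H460 from -0.01 to 0.18 and that of the members from -1.16 to -0.95, and PHGDH then missed the threshold there (adjusted p = 0.0555). Members called in H460 numbered 0 with no filter on low values, where no gene of any line was called, 7 with a replicate block and 7 in 1 fit of all 12 libraries. With the block these were the 3 called without it and PSAT1 (adjusted p = 0.00195), SHMT2 (adjusted p = 0.0189), MTHFD1 (adjusted p = 0.0311) and MTHFD1L (adjusted p = 0.0238), while PSPH had 0.0509. In the 12-library fit PSPH was called (adjusted p = 0.0411) and SHMT2 was not (adjusted p = 0.0523), and the other 6 were as with the block. The replicate block left the member counts of the other lines and of the average as they were, although on average SHMT2 gained a call (adjusted p = 0.0131) and MTHFD1L lost it (adjusted p = 0.0787). Members called on average were 3 with no filter and 1 with A549 and H2023 only, and members differing between H2023 and H460 controls were 1 with no filter. The MTHFD2 over MTHFD1 ratio changed by -1.24 with H2023 and H460 only, where the exact permutation test cannot pass the threshold (p = 0.0556). Counts over all genes went from 1879 to 3177 with a replicate block and 4585 in 1 fit of all 12 libraries in H460, from 128 to 711 and 748 in H2023, between siRNAs from 0 to 1449 in 1 fit of all 12 libraries, and for differences between lines from 290 to 843 with no filter, 76 with a replicate block and 91 with weights per line. Leaving out each library gave 0 to 5 called members in H460, 0 to 1 in H2023, 0 in A549, 3 to 6 on average, 0 to 2 differing between lines and 1 to 7 between the controls of H460 and H2023. It also let signs turn, with ranges in A549 of -0.127 to 0.0819 for PSPH, -0.0504 to 0.178 for MTHFD1, -0.235 to 0.0969 for MTHFD1L and -0.384 to 0.0739 for SHMT2. In H2023 the ranges were -0.472 to 0.106 for PHGDH, -0.0768 to 0.108 for PSPH and -0.0152 to 0.535 for ALDH1L2, and between H460 and H2023 controls -0.374 to 0.623 for PSAT1 and -0.878 to 0.0404 for ALDH1L2. The cause of these changes was not tested.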

Other observations

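With siRNA 30, 3 genes of the surrounding pathways that were picked after their values were seen were low in every line while siRNA 28 left them nearer the controls. MTRR, which reactivates methionine synthase, was at 14.6 FPKM with siRNA 30 in A549 against 24.2 to 30.7 FPKM in the other 3 libraries, at 14.6 FPKM in H2023 against 67.4 to 80.6 FPKM, and at 11.3 FPKM in H460 against 39.6 to 77.9 FPKM. DLD, a subunit shared by glycine cleavage and pyruvate dehydrogenase, was at 20.5, 10.7 and 16.3 FPKM with siRNA 30, against 39.9 to 43.2, 29.3 to 37.8 and 52.3 to 61.5 FPKM. MAT2B, a regulatory subunit of methionine adenosyltransferase, was at 12.03, 6.60 and 7.53 FPKM with siRNA 30, against 21.6 to 23.7, 14.2 to 17.6 and 21.2 to 29.5 FPKM.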
